A study of Mus musculus with 17 samples.

Results

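Proteasome subunit genes were taken by symbol from a table of 25198 genes counted in cultured mouse ovarian follicles: every Psma, Psmb, Psmc or Psmd gene whose name ends in a number, and Psme1 to Psme4. The rule found 43 genes, and no measured value entered it. Enough counts for a test were present for 40 of them, among 9603 genes tested. The 3 that were not tested, Psma8, Psmb9 and Psmb11, had at most 7, 9 and 9 counts in any library.

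The samples were antral follicles of CD1 mice aged 16 days, cultured for 8 days in eIVFG, an encapsulated in vitro follicle growth system. The 6 Tyrphostin libraries came from follicles given 10 µM Tyrphostin-AG1478, an inhibitor of the EGF receptor kinase dissolved in DMSO, together with human chorionic gonadotropin (hCG), the ovulatory stimulus, for 4 hours; the series title spells the compound AG4178. The 11 Control libraries carry the treatment value Control, but their protocol text is word for word that of the treated samples, so their exposure to hCG or to DMSO cannot be read from the labels. No genetic change is named for either group, each sample pooled follicles in triplicate, and each group was split over 2 batches named in the labels: 6 Control and 3 Tyrphostin libraries in batch 1, and 5 and 3 in batch 2. The library names place the Control libraries in 5 numbered sets, 2 in batch 1 and 3 in batch 2, and libraries of a set may share a source. Each set number is also that of a Tyrphostin library of the same batch, and no fit paired libraries by these numbers. Nothing in the labels says that libraries of a group came from separate animals or cultures, so p-values measure the spread between these libraries, which may be partly technical. In such bulk samples, fewer cells of a type and less RNA per cell cannot be told apart.

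The proteasome degrades proteins that carry ubiquitin chains. Its core particle is a barrel of alpha rings, encoded by Psma genes, around beta rings, encoded by Psmb genes, and the beta rings hold the proteolytic sites. A regulatory particle caps the barrel: its base holds a ring of ATPases (Psmc genes) that unfold the substrate and non-ATPase scaffolds, and its lid removes the ubiquitin. In the follicle, proteasome activity is known for its part in the resumption of oocyte meiosis and in cumulus expansion. Subunit genes are also known for joint transcriptional control by Nfe2l1, which raises them when proteasome activity falls.

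Library totals ran from 1820545 to 8291024 counts, so a floor of 3 counts equalled 0.336 to 1.64 CPM (counts scaled to a common library size, here with TMM factors). Floors cover counting error only, since the PCR copies of these libraries are not independent molecules. The granulosa list matched the labelled tissue through Inha and Inhba, with a summed level of 52470 to 81220 CPM over the 17 libraries, while Amh was at 0 in 12 libraries and Foxl2 did not pass the filter. Of its 6 tested genes, 3 were called higher in Tyrphostin libraries, where 10.6% of all genes tested were called. Cyp19a1, Nr5a2 and Fshr had log2 fold changes of 2.35, 2.18 and 0.83 (edgeR adjusted p = 2.84e-07, 8.38e-09 and 0.0344). Inha and Inhba were at -0.05 and -0.07. Summed levels were 16.98 to 209 CPM for oocyte markers, 246 to 3004 for theca and stroma, 8.33 to 87.9 for endothelium and 18.7 to 855 for immune cells. Summed oocyte markers were highest in Tyrphostin 6, at 209 CPM against at most 82.2 CPM in Control libraries. Theca and stroma and immune markers were both highest in Tyrphostin 5. Of the immune markers only Csf1r and Lyz2 passed the filter. Control 7 stood apart: mitochondrially encoded genes made 0.175% of its counts, and results that rest on it are given with and without it.

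Proteasome genes were well expressed in Control follicles, and most subunits of the core and regulatory particles lay in a narrow band. To compare genes, CPM was divided by the length in kilobases of the principal GENCODE transcript, so the order depends on which transcript is used. The highest level per length was that of Psmb6, the caspase-like catalytic subunit, at 378 CPM per kb ± 123 (SD, n = 11). Next came Psmd2, the base scaffold that docks ubiquitin carriers, at 269 ± 72.7, the alpha subunit Psma7 at 222 ± 89.4 and the ATPase Psmc4 at 197 ± 82.8 CPM per kb (SD, n = 11). Between neighbours in this order of 4 genes, the ranges of mean ± SD overlapped. The medians over the tested genes of each group were 71.6 CPM per kb for alpha, 76.4 for beta, 93.1 for ATPase and 64.7 for lid genes.

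Not every part of the core was read at the same level. Psmb7, the trypsin-like subunit, stood at 31.2 CPM per kb ± 5.54 and Psmb5, the chymotrypsin-like subunit, at 6.76 ± 2.34 (SD, n = 11), although the finished barrel carries the 3 catalytic subunits in equal number. Psmb5 shares 109 exonic bases on the same strand, 12.1% of its exonic length, with Mir686, which had 0 counts in every library, and its pseudogene Psmb5-ps had at most 4 counts. Whether reads over those 109 bases, or reads shared with copies of Psmb5 elsewhere, were dropped is not given in the sources used here. The level of Psmb5 is therefore uncertain. The chaperones that assemble the base, Psmd5, Psmd9 and Psmd10, which are not part of the finished particle, were at 7.33, 3.34 and 12.2 CPM per kb.

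**Figure D1:**
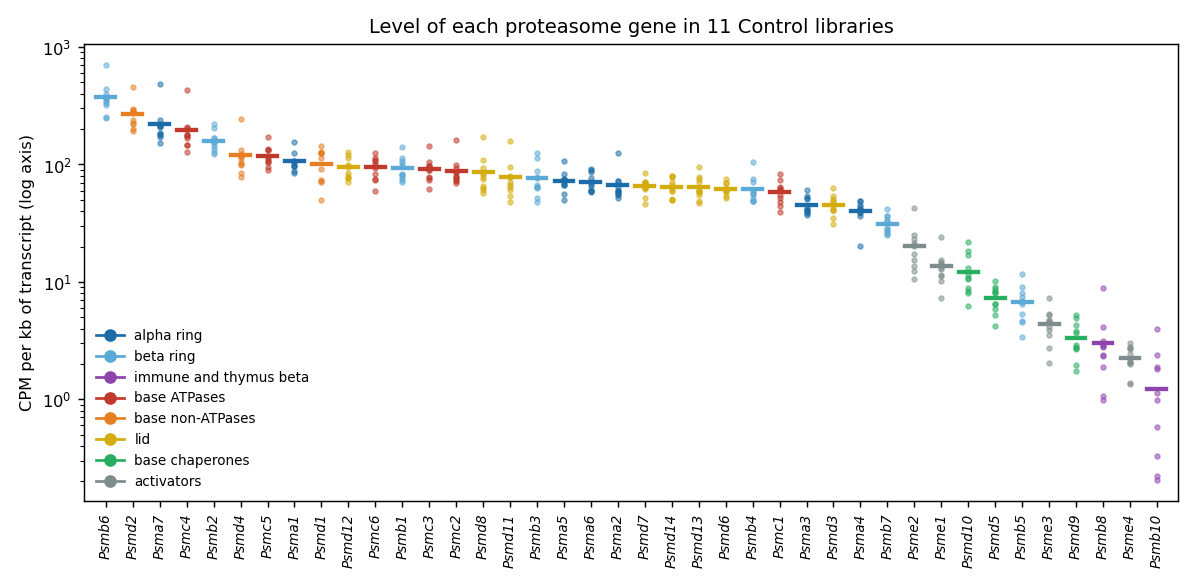
Level of 40 proteasome genes in the 11 Control libraries, in CPM per kb of transcript on a log axis; dots are libraries, bars are means and colours are subunit groups, and the 1 library with no Psmb10 count is not drawn. Psmb6 was highest at 378 CPM per kb, most core and regulatory particle genes lay near the median of 65.9, and Psmb5, the chaperones, the immune subunits and the activators lay lowest.

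Immune variants of the catalytic subunits were at low levels. Psmb8, Psmb9 and Psmb10 replace the standard catalytic subunits in cells exposed to interferon, and Psmb11 does so in the thymus. Together these 4 genes made 0.141% of the summed proteasome level in Control libraries. Psmb8 had 3.03 ± 2.13 and Psmb10 1.23 ± 1.21 CPM per kb (SD, n = 11), and the range of mean ± SD of Psmb8 overlapped with that of the standard subunit Psmb5 (6.76 ± 2.34). Psmb9 was at or below 1.37 CPM in every library. Psma8, an alpha subunit of the testis, was at or below 1.56 CPM. The activators that open the barrel in place of the regulatory particle were low too: Psme1 and Psme2, partners in a cap raised by interferon, at 13.5 and 20.3 CPM per kb, their nuclear relative Psme3 at 4.37, and the single-chain activator Psme4 at 2.24.

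The first comparison asked whether the EGF receptor inhibitor changed proteasome transcripts. None of the 40 genes had an edgeR adjusted p below the threshold, 0.05, with batch as a term, where 10.6% of all genes tested did (1018 of 9603). At an unadjusted edgeR p under 0.05 there were 2, Psmd5 and Psmd2, where 2279 of the 9603 genes tested were. Log2 fold changes were above 0 for 27 genes and below 0 for 13, with a median of 0.07, against 0.00 over all genes tested. Without Control 7 they were above 0 for 30 and below 0 for 10, with a median of 0.13 (all genes 0.01). They were within 0.15 of 0 for 25 genes. The 95% intervals treat the libraries as independent and hold for TMM scaling only. They lay inside 1.5-fold in either direction for 28 of 40 genes and inside 2-fold for 39, with Psmb10 as the exception (-0.76 to 1.45). The direction of small values rested on scaling. If libraries were scaled by their total counts, 38 genes were higher and 2 lower, but the median of all genes moved to 0.14 as well (members 0.22), and the calls over all genes split into 715 higher and 396 lower in place of 418 and 600.

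**Figure D2:**
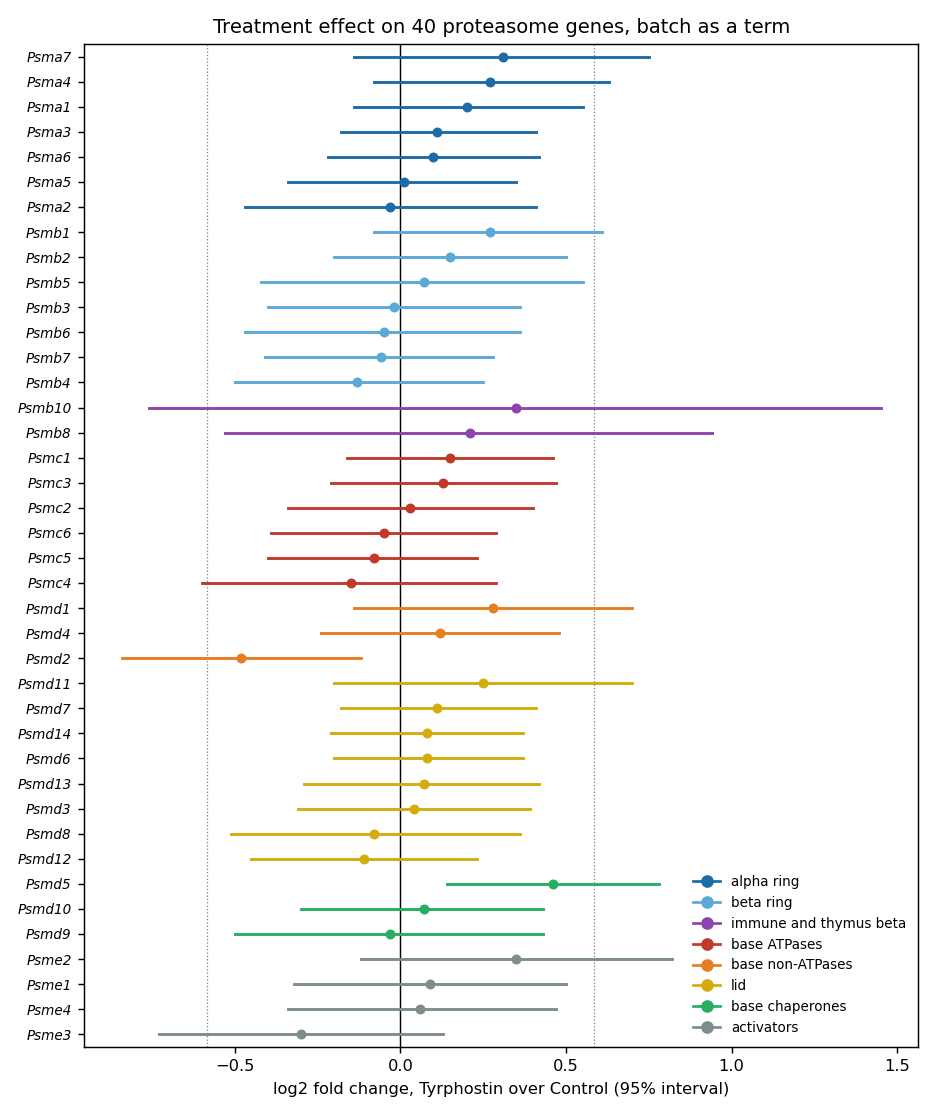
Log2 fold change of Tyrphostin over Control with its 95% interval for 40 proteasome genes, ordered within subunit groups; dotted lines mark 1.5-fold in either direction. The intervals of Psmd2 (-0.84 to -0.12) and Psmd5 (0.14 to 0.78) exclude 0, and neither gene passed the adjusted threshold.

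Psmd2 had the lowest value and Psmd5 the highest. Psmd2 ranged in Control from 569 through a median of 810.2 to 1352 CPM, and in Tyrphostin it was 526.1, 374 and 454 CPM in batch 1 and 753, 590.0 and 840.2 CPM in batch 2. The Tyrphostin libraries of batch 1 were low and lay below every Control library, whereas those of batch 2 overlapped with Control. Control averaged 796 CPM ± 215 (SD, n = 11) and Tyrphostin 589.5 ± 178 (SD, n = 6), which gave -0.48 ± 0.17 on the log2 scale (SE; edgeR adjusted p = 0.0808). Psmd2 passed in DESeq2 (adjusted p = 0.0273), which called 2 of 43 proteasome genes and 5.98% of all genes, and in none of the other 13 alternatives of setting.

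Psmd5 ranged in Control from 18.5 through a median of 35.2 to 44.4 CPM, and in Tyrphostin it was 44.8, 40.1 and 36.9 CPM in batch 1 and 42.9, 48.5 and 55.6 CPM in batch 2. All 6 Tyrphostin libraries lay above the Control median, and 3 lay above every Control library. Control averaged 32.2 CPM ± 7.90 (SD, n = 11) and Tyrphostin 44.8 ± 6.61 (SD, n = 6), which gave 0.46 ± 0.15 on the log2 scale (SE; edgeR adjusted p = 0.0575). This value lay at the threshold. It fell under it in DESeq2 (adjusted p = 0.0372), in limma-voom (0.0434), with upper-quartile scaling (0.0445) and with total counts (0.0128), and in edgeR without Control 1 (adjusted p = 0.0441), Control 4 (0.0381) or Control 7 (0.0297). Without Control 7 the lid gene Psmd11 also passed, at 0.46 ± 0.15 (SE; edgeR adjusted p = 0.0418) in place of 0.25 ± 0.22; that fit called 2 of 40 proteasome genes and 13.8% of all genes. No proteasome gene had all 6 Tyrphostin libraries outside the Control range, which held for 1.51% of genes tested. In batch 1 alone, Psmd2 was the 1 gene whose Tyrphostin libraries lay outside the Control range (11.3% of genes tested).

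**Figure D3:**
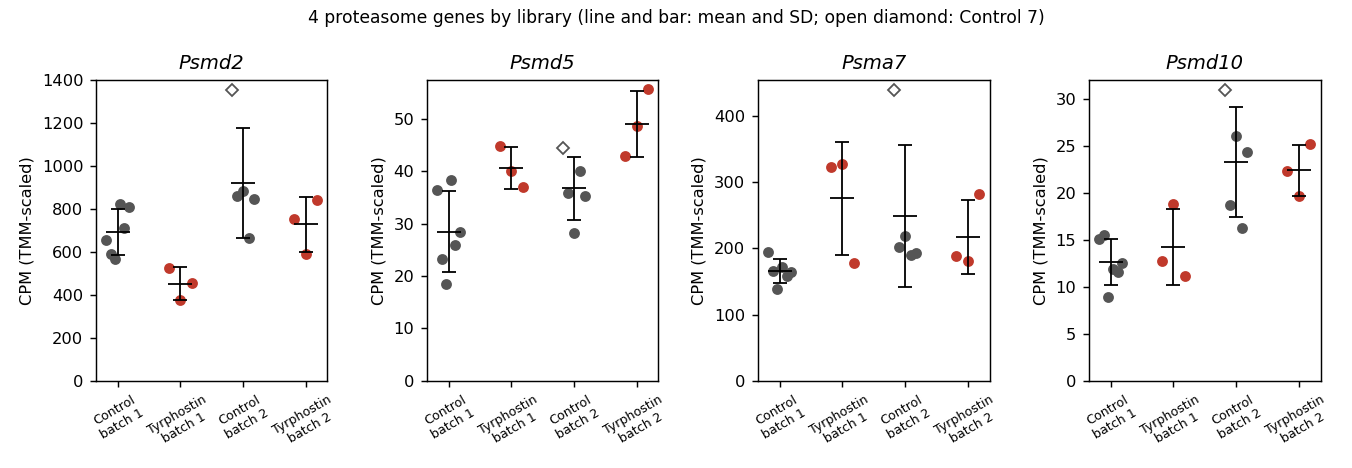
CPM of Psmd2, Psmd5, Psma7 and Psmd10 in each library by group and batch, with mean and SD; the open diamond is Control 7. Psmd2 in batch 1 Tyrphostin (374 to 526.1 CPM) lies under batch 1 Control (569 to 821), and Psmd10 in batch 2 Control lies above batch 1 Control.

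The promoters of Psmd2 and Psmd5 are shown because their genes lie at the ends of the treatment range, that of Psmd10 because it was called between Control batches, and that of Psmb5 because it holds the antioxidant response element core, to which Nfe2l1 and Nfe2l2 bind with small Maf partners. Each runs from 250 bases before to 50 after the RefSeq start (GRCm38.p6), on the gene's strand, with motif letters in capitals. The positions are chr16:20651402-20651701 (plus strand) for Psmd2, chr2:34870913-34871212 (minus) for Psmd5, chrX:140956662-140956961 (minus) for Psmd10 and chr14:54617946-54618245 (minus) for Psmb5.
Psmd2: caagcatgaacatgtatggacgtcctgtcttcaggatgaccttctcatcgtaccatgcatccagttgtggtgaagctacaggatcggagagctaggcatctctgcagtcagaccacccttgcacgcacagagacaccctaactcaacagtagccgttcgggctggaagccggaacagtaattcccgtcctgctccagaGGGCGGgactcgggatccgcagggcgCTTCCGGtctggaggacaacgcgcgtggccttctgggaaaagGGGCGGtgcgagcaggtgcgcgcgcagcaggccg
Psmd5: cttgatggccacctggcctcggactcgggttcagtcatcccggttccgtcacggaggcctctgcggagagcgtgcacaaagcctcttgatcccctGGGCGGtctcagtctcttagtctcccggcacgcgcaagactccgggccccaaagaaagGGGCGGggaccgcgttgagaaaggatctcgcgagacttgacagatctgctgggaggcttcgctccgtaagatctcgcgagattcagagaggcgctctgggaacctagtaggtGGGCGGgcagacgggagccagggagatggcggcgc
Psmd10: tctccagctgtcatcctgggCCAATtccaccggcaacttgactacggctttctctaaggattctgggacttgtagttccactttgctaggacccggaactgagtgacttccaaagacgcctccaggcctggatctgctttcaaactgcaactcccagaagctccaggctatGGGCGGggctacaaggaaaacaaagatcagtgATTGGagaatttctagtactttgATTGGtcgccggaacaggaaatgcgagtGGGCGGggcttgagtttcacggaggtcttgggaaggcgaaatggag
Psmb5: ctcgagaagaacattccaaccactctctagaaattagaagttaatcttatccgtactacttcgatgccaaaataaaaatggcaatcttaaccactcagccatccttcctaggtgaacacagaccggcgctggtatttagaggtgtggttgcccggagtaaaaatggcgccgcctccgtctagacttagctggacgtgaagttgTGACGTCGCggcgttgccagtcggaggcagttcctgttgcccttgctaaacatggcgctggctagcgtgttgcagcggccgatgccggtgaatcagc
The letters searched, on both strands, were GGGCGG (the Sp GC box), CCGGAAG (the ETS core), CCAAT (the NF-Y box) and TGACNNNGC (the antioxidant response element core). In the 4 sequences no match overlaps another. Psmd2 holds 2 GC boxes and 1 ETS core, Psmd5 holds 3 GC boxes, Psmd10 holds 3 CCAAT boxes, 2 of them within 50 bases before the start, and 2 GC boxes, and Psmb5 holds 1 antioxidant response element core 47 bases before the start. RefSeq promoters matched 36 of the 43 proteasome genes. The ETS core was in 12 of the 36 (33.3%), against 22.2% of the tested genes with a promoter and 9.93% of all genes with a promoter. The GC box was in 22 (61.1%), against 72.0% and 38.2%. CCAAT was in 14 (38.9%), against 42.9% and 41.1%, and the antioxidant core in 6 (16.7%), against 17.1% and 14.0%. These are letter matches without a test, and a match is not a measured binding site.

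Catalytic genes showed no change that passed the threshold. For Psmb5 the Control mean was 6.08 CPM ± 2.11 (SD, n = 11) and the Tyrphostin mean 6.35 ± 1.04 (SD, n = 6), with 0.07 ± 0.24 (SE) on the log2 scale. Psmb6 had 302 CPM ± 98.2 and 290.5 CPM ± 70.1 (-0.05 ± 0.20, SE), and Psmb7 36.2 CPM ± 6.43 and 34.7 CPM ± 12.5 (-0.06 ± 0.17, SE). Psmb6 and Psmb7 lay on both sides of 0 across settings, while Psmb5 was at 0.03 to 0.22 over 14 alternatives of setting and at -0.01 without Control 10. The ranges of the groups overlapped for the 3 genes. Of the immune subunits, Psmb8 had 0.21 ± 0.36 and Psmb10 0.35 ± 0.53 (SE), on 4.92 and 1.61 CPM in Control and 5.86 and 2.35 CPM in Tyrphostin libraries. Psmb9 was not tested: its mean was 0.379 CPM in Control and 0.828 CPM in Tyrphostin libraries, within the range of the floors of 3 counts. Psmb8 was 14.4 CPM in Control 7 and 12.1 CPM in Tyrphostin 5, and 1.62 to 6.67 CPM elsewhere. Summed immune markers were 301 CPM in Control 7 and 855 CPM in Tyrphostin 5, mostly Lyz2, and theca and stroma markers 2125 and 3004 CPM. In Control 8 these sums were 462 CPM for immune and 1983 CPM for theca and stroma markers, and Psmb8 was 4.59 CPM. The part of these markers in the Psmb8 values was not tested. Without Tyrphostin 5 the log2 fold change of Psmb8 was -0.06.

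The medians of the subunit groups lay between -0.02 and 0.12, apart from 0.28 for the 2 tested immune genes. Without Control 7 they lay between 0.08 and 0.24, apart from 0.57 for those 2 genes. Of the alpha genes, 6 of 7 tested had values above 0, with a median of 0.11 and a range from -0.03 (Psma2) to 0.31 (Psma7). Without Control 7 all 7 were above 0, with a median of 0.15. Beta genes split into 3 above and 4 below 0 (median -0.02), and ATPase genes into 3 and 3 (median -0.01). Both medians rested on Control 7: without it beta genes split into 5 and 2 (median 0.08) and ATPase genes into 4 and 2 (median 0.11). Lid genes split into 6 and 2 (median 0.07), from -0.11 for Psmd12 to 0.25 for Psmd11. Psmd14, the lid's deubiquitinase, was at 0.08 ± 0.14 (SE), and the ATPase Psmc4 at -0.15 ± 0.21 (SE). Psmd1, the other large scaffold of the base, had 0.28 ± 0.20 and Psmd4, an intrinsic ubiquitin receptor, 0.12 ± 0.17 (SE), so the 3 non-ATPase genes of the base did not share a sign. Among the activators Psme2 had 0.35 ± 0.23, Psme1 0.09 ± 0.20, Psme4 0.06 ± 0.20 and Psme3 -0.30 ± 0.21 (SE). The 6 Tyrphostin values of Psme3, 6.89 to 11.9 CPM, were below its Control median of 12.1 CPM but inside the Control range of 5.47 to 19.5 CPM. Without Control 7, Psme2 had 0.53 ± 0.19 (SE; edgeR adjusted p = 0.0623), Psmd4 0.24 ± 0.14 and Psmb10 0.63 ± 0.53 (SE). None of the genes named here passed the threshold with all libraries.

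The batches differed in the balance of signs. In batch 1, 31 of 39 genes had values above 0, with a median of 0.18 (all genes 0.02), and in batch 2, 17 of 40 did, with a median of -0.04 (all genes -0.01). No proteasome gene was called in batch 1 (edgeR), where 6.73% of genes were, or in batch 2 (edgeR), where 0.621% were. At an unadjusted edgeR p under 0.05 there were 4 in batch 1, where 2001 of 9423 genes were. In batch 2 there were 0, where 1047 of 9830 genes were. Of 6 tested theca and stroma markers, 2 were called in batch 1. These were Col1a1 and Col1a2, which fell by 1.20 and 1.28 on the log2 scale (edgeR adjusted p = 0.0270 and 0.0442). In batch 2 they were at 1.11 and 0.88 (edgeR adjusted p = 0.443 and 0.665). The list did not share a sign in batch 1: Col3a1, Dcn and Pdgfra were at -1.19, -0.68 and -0.81, and Cyp17a1 was at 1.27 (edgeR adjusted p = 0.207). Summed, that list was 246 to 710 CPM in Control and 264 to 364 CPM in Tyrphostin libraries of batch 1, and 400 to 2125 and 796 to 3004 CPM in batch 2; its part in the balance of proteasome genes was not tested. Of the 39 genes tested in both, 14 were higher in both, 6 lower in both, 17 higher in batch 1 and lower in batch 2, and 2 the reverse. The batch 2 balance rested on single libraries: 28 of 40 were above 0 without Control 7 (median 0.08) and 6 of 40 without Tyrphostin 6 (median -0.22). Tyrphostin 6 had the highest summed oocyte markers (209 CPM), and their part in this balance was not tested. The interaction of treatment and batch called 0 proteasome genes and 0% of all genes (edgeR). It had 2 proteasome genes at an unadjusted edgeR p under 0.05, Psma7 and Psmb3, where 342 of 9603 genes were. Its values were below 0 for 32 of 40 genes, with a median of -0.22, and for 25 without Control 7, with a median of -0.08.

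Psma7, an alpha subunit, was the gene nearest to a call within a batch. In batch 1 it was 322, 328 and 177 CPM in Tyrphostin and 138 to 194 CPM in Control libraries. Tyrphostin 1 and 2 were above every Control library of that batch and Tyrphostin 3 lay among them. The log2 value was 0.74 ± 0.23 (SE; edgeR adjusted p = 0.0556), and 0.99 ± 0.22 (edgeR adjusted p = 0.0143) without Tyrphostin 3. It also passed with total counts (edgeR adjusted p = 0.0150) and without the filter on low counts (0.0236). In batch 2 it was 189, 181 and 282 CPM against 190.2 to 439.7 CPM, a log2 fold change of -0.19 ± 0.32 (SE). The 439.7 CPM was in Control 7, and the other Control libraries of batch 2 had 190.2 to 219.3 CPM. With Control 7 included, the interaction was -0.93 ± 0.40 (SE; edgeR adjusted p = 0.9997). Over both batches Psma7 had 0.31 ± 0.22 (SE; edgeR adjusted p = 0.415). Without Control 7 it had 0.46 ± 0.16 (SE; edgeR adjusted p = 0.0636).

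**Figure D4:**
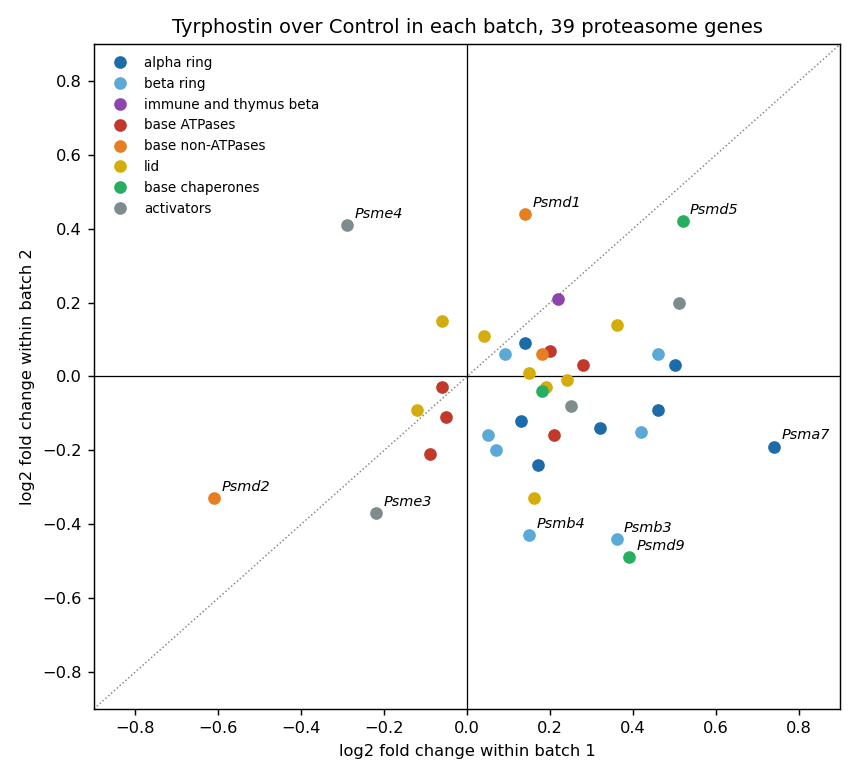
Log2 fold change of Tyrphostin over Control within batch 1 (horizontal) and batch 2 (vertical) for 39 proteasome genes, coloured by subunit group, with a dotted line at equal values. Psmd2 and Psme3 are below 0 in both batches, Psmd5 is above 0 in both (0.52 and 0.42), and 17 genes lie above 0 in batch 1 and below 0 in batch 2.

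Control follicles were compared between batches to see how the genes vary apart from the inhibitor. Psmd10, the base chaperone also called gankyrin, was the 1 gene of 38 tested that was called, where 14.0% of genes were called and 7.26% were called higher in batch 2. It was 15.1, 15.6, 8.97, 11.9, 11.6 and 12.6 CPM in batch 1 and 31.0, 18.7, 26.1, 16.3 and 24.3 CPM in batch 2. The 2 batches did not overlap, with at most 15.6 CPM in batch 1 and at least 16.3 CPM in batch 2. The share of all genes without overlap between the Control batches was not counted. The log2 difference, batch 2 minus batch 1, was 0.89 ± 0.21 (SE, edgeR adjusted p = 0.0122). The Tyrphostin libraries had 11.1 to 18.8 CPM in batch 1 and 19.7 to 25.2 CPM in batch 2. With the Control libraries summed by set, which leaves 2 sets against 3, the call was lost (0.84 ± 0.26, SE, edgeR adjusted p = 0.157). In that fit no proteasome gene of 39 tested was called (edgeR), and 1.09% of all genes were. This fit was added after the data were seen. Over the 38 genes 30 were higher and 8 lower in batch 2, with a median of 0.19 (all genes 0.04).

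That balance also depended on Control 7. Without it, 22 genes were higher and 16 lower, the median was 0.05, and 4 were called where 14.9% of genes were: Psmd10 (0.78 ± 0.21, SE; edgeR adjusted p = 0.0218), the chaperone Psmd9 (0.86 ± 0.24; 0.0250), Psmd14 (0.52 ± 0.14; 0.0217) and, lower in batch 2, Psmd1 (-0.81 ± 0.18; 0.00658). Without Control 6, Psmd9 joined Psmd10 (0.83 ± 0.25, SE; edgeR adjusted p = 0.0414) where 13.4% of genes were called. Psmd1 was 287 to 447 CPM in batch 1 Control, 155 to 229.7 CPM in 4 of the batch 2 Control libraries and 399 CPM in Control 7.

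Control 7 was the library in which proteasome genes stood out. It was the highest of the 17 libraries for 21 of 40 genes (52.5%), against 14.8% of all genes tested. The summed level of the 43 genes was 7978 CPM there and 4164 to 5235 CPM in the other 4 Control libraries of batch 2. The excess was uneven. Against the mean of those 4 libraries, 30 genes were higher and 10 lower, with a median ratio of 1.53 and 11 genes at 2 times or more. Psmd11 was at 2.81 times (453 CPM) and Psmc4 at 2.80 times (625.2 CPM), while the ATPase Psmc6 was at 0.670 (132 CPM, its lowest level in any library), Psmd3 at 0.668 and Psme4 at 0.529. The mitochondrial share, 1.74% to 1.94% in the other 4, was low in the same library, and its part in these levels was not tested. Summed immune markers were 301 CPM in Control 7 and 462 CPM in Control 8, and theca and stroma markers 2125 and 1983 CPM. Within the theca and stroma list, Dcn was 382 CPM in Control 7 and 150 CPM in Control 8, and Cyp17a1 350 and 548 CPM. The summed proteasome level of Control 8 was 4937 CPM. The part of these markers in the Control 7 levels was not tested. At the other end, Control 3 was lowest for 11 of 40 genes, against 6.99% of all genes.

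**Figure D5:**
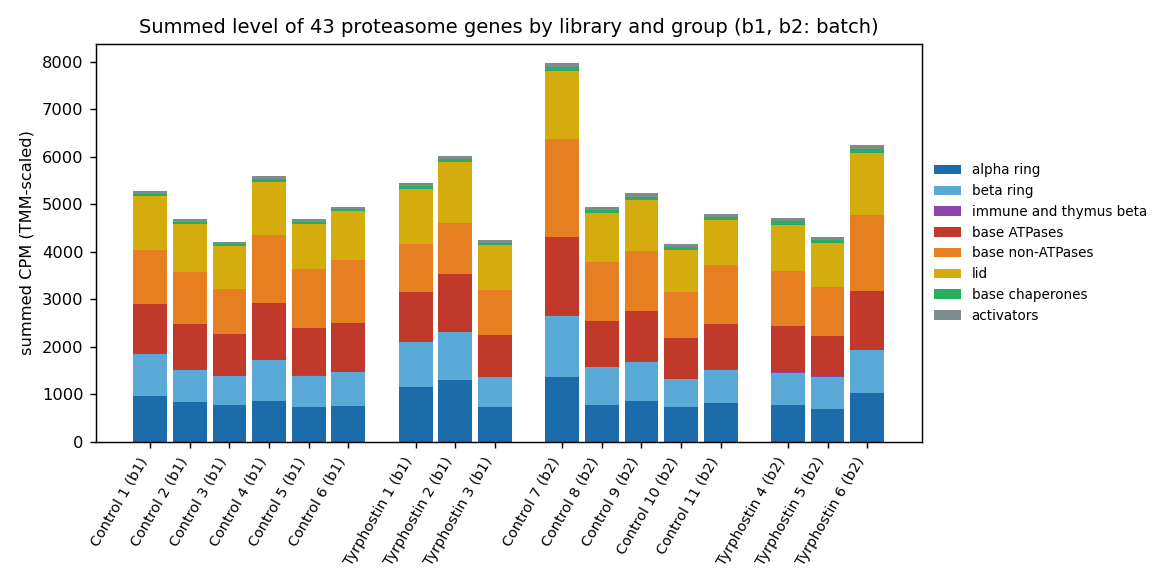
Summed CPM of the 43 proteasome genes in each of 17 libraries, stacked by subunit group and ordered by batch and treatment. Control 7 reaches 7978 CPM, the other Control libraries lie between 4164 and 5599 CPM, and Tyrphostin libraries lie between 4247 and 6247 CPM.

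The summed level of proteasome transcripts overlapped between the groups. Control averaged 5140 CPM ± 1035 (SD, n = 11) and Tyrphostin 5169 ± 866 (SD, n = 6), and Control without Control 7 averaged 4856 ± 453 (SD, n = 10). The non-ATPase genes of the base held 24.7% of the Control sum, ATPases 20.5%, the lid 20.4%, the alpha ring 16.8% and the beta ring 15.1%, with 1.14% in chaperones and 1.18% in activators. These shares are of CPM not divided by transcript length, so longer transcripts weigh more in them. The spread of single genes was modest: over the 11 Control libraries the SD of log2(CPM + 1) ran from 0.160 for Psmd6 to 0.830 for Psmb10, with a median of 0.342, and the median without Control 7 was 0.253. Over all genes tested the median SD was 0.488, but their median level was 13.2 CPM against 101 CPM for proteasome genes, and low counts add spread.

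Genes around the proteasome were read from lists of its assembly, control and supply. Of 15 tested assembly and binding factors, 0 were called (edgeR), where 10.6% of all genes tested were. Pomp, the maturation factor of the core, had -0.46 ± 0.19 (SE; edgeR adjusted p = 0.134) and Psmg1, a chaperone of the alpha ring, 0.60 ± 0.29 (SE; edgeR adjusted p = 0.206), which passed without Control 7 (0.85 ± 0.24; edgeR adjusted p = 0.0192). The inhibitor Psmf1 was at -0.06 ± 0.16 and the ubiquitin receptor Adrm1 at -0.01 ± 0.16 (SE). Of 11 tested genes of transcription and activation, 1 was called higher and 1 lower, beside the same 10.6% of all genes. Mafk, a small Maf partner of Nfe2l1 and Nfe2l2, fell by 0.95 ± 0.22 on the log2 scale (SE; edgeR adjusted p = 0.00621), from a Control mean of 29.1 CPM ± 10.2 (SD, n = 11) to a Tyrphostin mean of 15.02 ± 5.30 (SD, n = 6). It passed in 14 of 14 alternatives of setting and without any 1 of the 17 libraries. Keap1, the adaptor that targets Nfe2l2 for degradation, rose by 0.51 ± 0.15 (SE; edgeR adjusted p = 0.0303), from a Control mean of 18.5 CPM ± 2.48 (SD, n = 11) to a Tyrphostin mean of 26.3 ± 4.55 (SD, n = 6). It passed in 10 of 14 alternatives of setting, and the call was lost with no filter on low counts (edgeR adjusted p = 0.0924), when the log10 library total was added to the model (0.0579), when Control libraries were summed by set (0.102) and with the replicate number as a block (0.248). It was also lost without Control 2 (edgeR adjusted p = 0.0528) or without Tyrphostin 1 (0.0828), 3 (0.0551), 5 (0.0750) or 6 (0.0950). Nfe2l1 and Nfe2l2 themselves were at 0.13 ± 0.22 and -0.02 ± 0.20 (SE).

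Of 14 tested genes of ubiquitin supply and delivery, 0 were called (edgeR), where 10.6% of all genes tested were. The polyubiquitin gene Ubb had -0.35 ± 0.21 (SE; edgeR adjusted p = 0.325), and since ubiquitin genes hold repeated near-identical units its count is uncertain. Of 7 tested interferon and antigen presentation genes, 0 were called (edgeR), and Isg15, Ifit1 and Nlrc5 were among those that did not pass the filter. No test compared the counts of these short lists with the 10.6% of all genes. Among the proteasome genes, 8 share exonic bases in GENCODE with another gene of the table, 7 of them on the opposite strand, such as Psmb7 with Nek6 and Psmd13 with Sirt3. Whether counting used strand is not given in the sources used here, so reads of such pairs cannot be told apart. Named copies in the table were low, with at most 11 counts for Psme2b, 7 for Psmb6-ps2 and 2 for Psmb6-ps in any library, but levels of genes with near-identical copies are uncertain.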

How the data were processed

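The authors deposited whole-number read counts per gene symbol for 17 Smart-Seq2 libraries (10 µL of lysate, RNA-SPRI beads per the labels' protocols). STAR, HTSeq and the build GRCm38 are named in the submitters' processing notes; versions, annotation, strand and multi-mapping settings are not given in the sources used here. Of the rows, 3576 held no count. Here the treatment effect was fitted on the whole table with edgeR 4.0.16 (R 4.3.3): filterByExpr, TMM, robust glmQLFit and glmQLFTest with batch as a term, Benjamini-Hochberg adjustment over all genes tested and a threshold of 0.05. Intervals are 95%. Further fits covered each batch, the interaction and the Control batches. No library was a copy of another of its group and batch: chi-square values divided by their degrees of freedom were 13.6 to 97.2 over 31 such pairs. Pairs across groups or batches were not compared. Lengths came from GENCODE M21, promoters from RefSeq. Alternatives used limma 3.58.1 and DESeq2 1.42.0, other scalings, filters, covariates and thresholds, and omission of each library; code was tested on simulated counts. Genes named in full were those called, the 3 highest and 3 lowest log2 fold changes, the catalytic, immune and Psme genes, and, of the surrounding lists, those called plus 8 named in the rule, of which 1 is not reported here; Psma7, Psmd10, Psmd11, Psmd1, Psmd9 and other single genes outside this rule were chosen after their values were seen. The members and lists were chosen with earlier results of these data known.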

Additional observations from a re-analysis of the deposited data

Results flagged for a closer look

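A library far from the rest of its group, by Dixon's test at 95%, was looked for in the levels of the catalytic, immune, activator and extreme genes and in their sum: 42 groups were searched and 6 had one, where chance gives about 1 in 20, or 2.1. In Control 7, against the other 4 Control libraries of batch 2, Psmc4 was 625.2 CPM (others 182 to 257), Psmb6 was 564 CPM (197 to 298), Psmb8 was 14.4 CPM (1.74 to 4.70) and the summed level of the 43 genes was 7978 CPM (4164 to 5235). Without Control 7 the log2 fold changes of Psmc4 and Psmb6 were 0.05 and 0.08 in place of -0.15 and -0.05, and that of Psmb8 was 0.51 in place of 0.21. In Tyrphostin 1, Psmb7 was 59.5 CPM against 25.3 to 32.8 CPM in the other 5 Tyrphostin libraries. In Tyrphostin 5, Psmb8 was 12.1 CPM against 3.36 to 6.17 CPM. The 4 Control 7 values come from 1 library and are not independent of each other.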

How the results depend on the processing

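The median log2 fold change of proteasome genes stayed between 0.04 and 0.22 over the alternatives and between 0.04 and 0.14 without each library. Their count of calls, 0, was 1 with upper-quartile scaling, total counts or limma-voom and 2 in DESeq2, and 0 to 2 without each library; all genes called were 10.6%, 11.6% and 11.8% in the first 3 and 5.98% in DESeq2. Within batch 1 it was 1 with total counts (7.77% of all genes) or no filter (4.40%) and 0 to 1 without each library, within batch 2 and for the interaction 0 to 0, and for Control batches, 1, it was 7 of 38 with total counts (16.7% of all genes), 0 with Control summed by set (1.09%; added after seeing the data) and 1 to 4 without each library. All genes called, 1018, were 619 when batch was dropped, 678 with log10 total count, 478 at an adjusted p under 0.01 (a stricter threshold) and 708 to 1314 without each library. In the replicate block fit of 12 libraries, which used the numbers of the sample titles, 624 genes and 0 members were called. Deviations of libraries with the same title number correlated at 0.469, 0.311, 0.377, 0.0128, -0.133 and -0.0632. Title numbers 4 to 6 cross batches, so the title numbers do not pair the samples. A pairing by the set numbers of the library names, which stay within a batch, was not fitted. Where no cause is named, the cause was not tested.

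Signs turned for values near 0. Upper-quartile scaling gave Nfe2l2 0.01 and Adrm1 0.02; total counts Psmc4 0.01, Psmb6 0.10, Psmb7 0.07, Nfe2l2 0.15, Psmf1 0.08 and Adrm1 0.15; limma-voom Nfe2l2 0.02 and Adrm1 0.01. No filter gave Psmb6 0.01, Nfe2l2 0.03 and Adrm1 0.04; a filter of 1 CPM in 6 libraries Nfe2l2 0.00 and Adrm1 0.01; Control summed by set Psmb6 0.00 and Nfe2l2 0.06. The replicate block gave Psmb10 -0.16, Psmc4 0.00, Psmb6 0.19, Psme4 -0.28, Nfe2l1 -0.13, Nfe2l2 0.03 and Adrm1 0.06. Without each library the ranges were -0.09 to 0.07 (Adrm1), -0.03 to 0.31 (Nfe2l1), -0.10 to 0.11 (Nfe2l2), -0.01 to 0.18 (Psmb5), -0.17 to 0.08 (Psmb6), -0.26 to 0.02 (Psmb7), -0.06 to 0.51 (Psmb8), -0.23 to 0.05 (Psmc4), -0.02 to 0.20 (Psme1), -0.02 to 0.14 (Psme4) and -0.14 to 0.01 (Psmf1). Depth limits the immune subunits, where Psmb9 never exceeded 9 counts.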
